A study of Mus musculus with 28 samples.

Results

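Tumours of different tissues that arose in mice with a monomeric form of p53 were compared: 7 thymic lymphomas, called TL1 to TL7 below, and 5 sarcomas, called S1 to S5. These 12 tumours were all the RP tumours among the 24 tumours and 28 samples of the series, and they were chosen by genotype and tissue label. Every animal carried the genotype p53 RP/-, that is 1 germline RP allele, which encodes monomeric p53, and no second functional allele. Their strain background was mixed, 50% BALB/C with 50% C57BL6. Tumours were collected at the end point, with no treatment named. The remaining samples were 7 thymic lymphomas and 5 sarcomas of AD mice, whose allele encodes dimeric p53, and 4 ear samples. The age of the animals, the site of the sarcomas and the share of normal cells are not given, and each tumour is 1 replicate. The labels do not name a driver line or a transgene: the allele is in the germline, so the tumour types share genotype and differ in tissue.

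The protein p53, encoded by Trp53, binds DNA as a tetramer, and a form that stays monomeric loses most of that activity. Mice without p53 function are known for thymic lymphoma, a T-cell tumour, and for sarcoma, a tumour of connective tissue. Loss of p53 can let cells with gained or lost chromosomes survive. A thymocyte also cuts and rejoins its antigen receptor genes while it matures, so a T-cell tumour carries deletions there that a connective tissue cell does not have.

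Copy number was read from exome sequencing at 150 nt as a log2 copy ratio, in which 0 is the level of a comparison DNA and 1 is a doubling of it. Values were averaged over segments by length. A segment was called gained at 0.3 or above and lost at -0.3 or below. Values are uncentred unless stated; "centred" means that the tumour's own length-weighted autosomal median was subtracted. The tables held 117 to 161 segments in a thymic lymphoma and 83 to 152 in a sarcoma, and read depth is unknown. Autosomal markers numbered 204917 to 204922 in thymic lymphomas and 205073 to 205074 in sarcomas, without overlap. Tumour type and whatever set these totals cannot be told apart.

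The labels of the tissue could be checked at the antigen receptor loci. All 7 thymic lymphomas had a deep loss, a segment at -1 or below, inside both the T-cell receptor alpha and delta locus and the beta locus. No sarcoma had one (0 of 5). At the alpha and delta locus (chr14:52427967-54224198, GRCm38), where 202 annotated gene segments lie, the lowest segment ran from -4.59 to -2.003 in thymic lymphomas, with a median of -3.88. In the sarcomas S1 to S5 it stood at 0.16, -0.03, -0.003, 0.03 and -0.01. The groups did not overlap. At the beta locus (chr6:40891296-41558371) the lowest segment ran from -4.81 to -2.09 in thymic lymphomas, with a median of -4.11. In the sarcomas it stood at -0.03, -0.07, -0.34, -0.03 and -0.03, and the value of S3 lay furthest from 0 without reaching -1.

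These losses covered a large part of the alpha and delta locus and of the beta locus. Segments at least 1 below the level of their own autosome took 21.2% to 75.4% of the alpha and delta locus and 44.9% to 65.7% of the beta locus in thymic lymphomas, against 0% in all 5 sarcomas. The gamma locus (chr13:19178042-19356476) held a segment at -1 or below in 6 of 7 thymic lymphomas, TL6 being the exception at -0.59. The immunoglobulin heavy chain locus held one in 5 of 7 thymic lymphomas, where joining of D and J segments is also known from T cells. The kappa and lambda light chain loci, rearranged in B cells, held none in any of the 12 tumours. By length the gamma and heavy chain losses were small in most thymic lymphomas. Segments at least 1 below their autosome took 0% to 1.61% of the gamma locus (median 1.33%). They took 0% to 18.1% of the heavy chain locus (median 0.68%, highest in TL1). At the kappa locus, which like the beta locus lies on chromosome 6, the lowest segment still ran from -0.39 to -0.18 in thymic lymphomas and from -0.05 to 0.01 in sarcomas, without overlap and at the median of its autosome in each tumour. The plot of the lowest segment in each receptor locus shows all 6 loci.

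**Figure D1:**
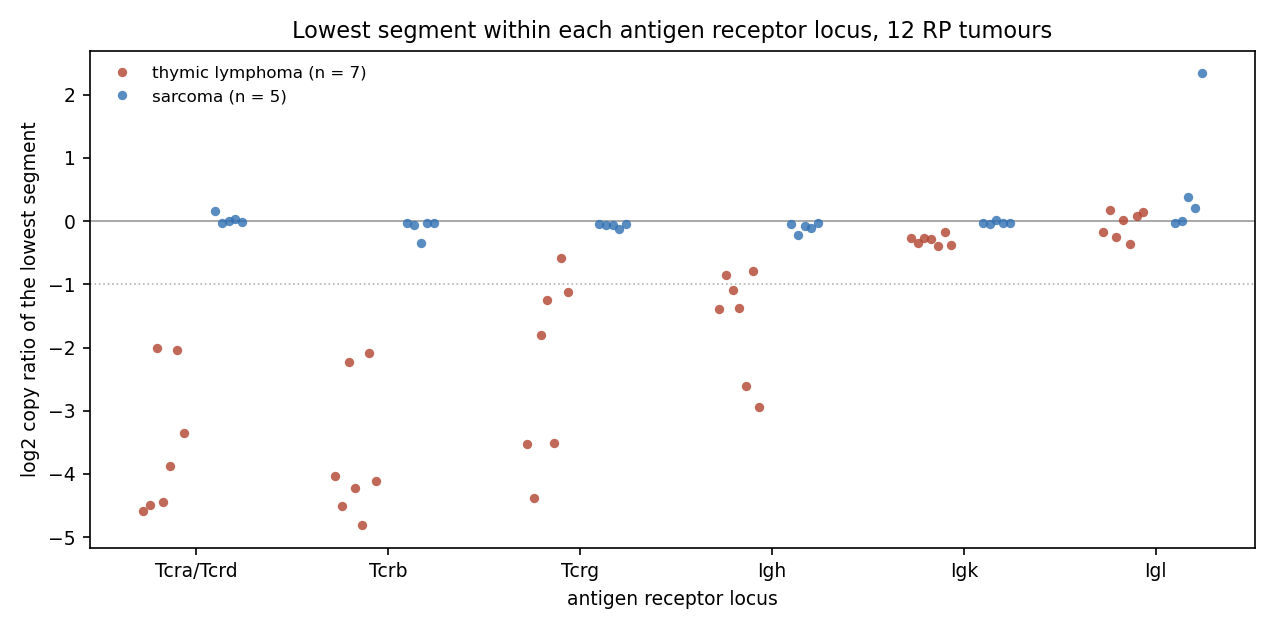
Log2 copy ratio of the lowest segment inside each of 6 antigen receptor loci (x axis), 1 point per tumour, with the dotted line at -1. All 7 thymic lymphomas lie at -2.003 or below at Tcra/Tcrd and at -2.09 or below at Tcrb, while the 5 sarcomas lie at -0.34 or above at these loci; the highest lambda value, 2.34, is S5.

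The depth of these losses was not the same in every thymic lymphoma. In TL3 and TL6 the lowest segment of the alpha and delta locus kept 25.0% and 24.4% of the comparison signal, against 4.17% to 9.76% in the other 5. At the beta locus it kept 21.3% and 23.5%, against 3.56% to 6.14% in the other 5. TL3 and TL6 also had the smallest altered shares and the smallest spread of autosome means of the 7, as given next. The part of this in their smaller altered shares was not tested.

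Thymic lymphomas had far more of their autosomes altered than sarcomas. The altered share, the percent of segmented autosomal length gained or lost, ran from 5.51% (TL3) to 54.7% (TL2) in thymic lymphomas, with a median of 39.7%. In the sarcomas S1 to S5 it was 0.0801%, 1.83%, 0.714%, 0.114% and 3.14%. The lowest thymic lymphoma lay above the highest sarcoma. The means were 34.8% ± 16.9 (SD, n = 7) and 1.18% ± 1.31 (n = 5), a difference of 33.6 points ± 6.42 (SE; two-sided exact permutation p = 0.00253, the smallest that 792 splits of 7 against 5 can give). Centred, the shares were 25.5% ± 11.2 and 1.62% ± 1.84 (exact permutation p = 0.00253).

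At the cutoff of 0.3, changes of whole autosomes were found in thymic lymphomas and not in sarcomas. Such a change takes at least 80% of the autosome's segmented length in 1 direction. TL1 to TL7 had 6, 11, 1, 6, 7, 4 and 9 of them, and each of the 5 sarcomas had 0 (exact permutation p = 0.00253, n = 7 and 5). Of the mean of 6.29 ± 3.25 in thymic lymphomas, 1.86 were gains and 4.43 losses. Centring turned that balance: 3.0 gains and 1.14 losses of whole autosomes remained per thymic lymphoma, and 0 per sarcoma. At a lower cutoff of 0.2, uncentred, sarcomas had such changes too, with a mean of 0.6 against 10.1 in thymic lymphomas.

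The excess of losses depends on where the level of 0 is set. Thymic lymphomas had a median log2, weighted by length, of -0.12 ± 0.08, and sarcomas one of -0.03 ± 0.02 (difference -0.09; exact permutation p = 0.0126, n = 7 and 5). Lost regions took 24.2% ± 14.9 of the thymic lymphoma autosomes uncentred and 5.57% ± 7.69 centred, against 0.713% and 0.601% in sarcomas (exact permutation p = 0.00758 and 0.152). Gained regions took 10.5% ± 3.16 uncentred and 19.96% ± 10.3 centred, against 0.463% and 1.02% (exact permutation p = 0.00253 for both). Gain therefore differed under both settings, and loss passed only without centring.

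A measure that centring cannot move gave the same separation. The SD over the 19 autosome means of a tumour ran from 0.22 (TL3) to 0.32 (TL1) in thymic lymphomas, with a median of 0.29. In S1 to S5 it was 0.09, 0.15, 0.08, 0.07 and 0.04. The groups did not overlap (difference 0.20 ± 0.02 SE; exact permutation p = 0.00253, n = 7 and 5). Autosomes whose mean lay within 0.1 of 0 numbered 1 to 7 in thymic lymphomas and 9 to 18 in sarcomas. The sarcoma with the widest spread was S2, whose autosomes ran from -0.23 (chromosome 18) to 0.29 (chromosome 15).

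**Figure D2:**
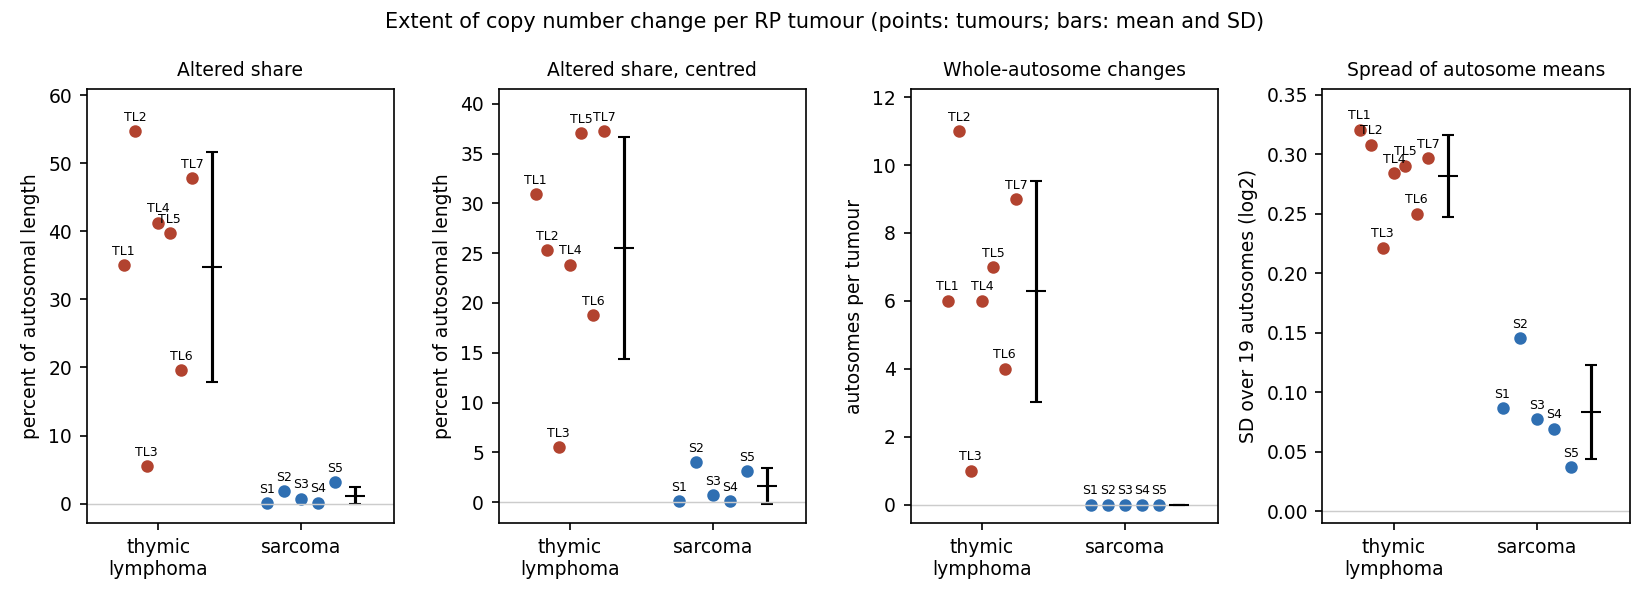
Extent of copy number change in each tumour: altered share of autosomal length uncentred and centred (percent), whole-autosome changes (count) and SD over the 19 autosome means (log2). Points are tumours and bars give mean and SD; all 7 thymic lymphomas lie above all 5 sarcomas in each panel, with TL3 the lowest thymic lymphoma (5.51% altered, 1 whole autosome).

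Among single autosomes, chromosome 4 was higher in thymic lymphomas and chromosomes 3, 6, 7, 13, 18 and 19 were lower. These 7 of 19 autosomes (36.8%), 1 higher (5.26%) and 6 lower (31.6%), passed the exact permutation test at an adjusted p under 0.05. Adjusted p-values throughout are Benjamini-Hochberg values over all autosomes, bins or genes tested. The groups did not overlap at 2 of the 19 autosomes (10.5%), chromosomes 4 and 6. The plot of autosome means shows the sarcoma values close to 0 on most chromosomes and the thymic lymphoma values spread to both sides.

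**Figure D3:**
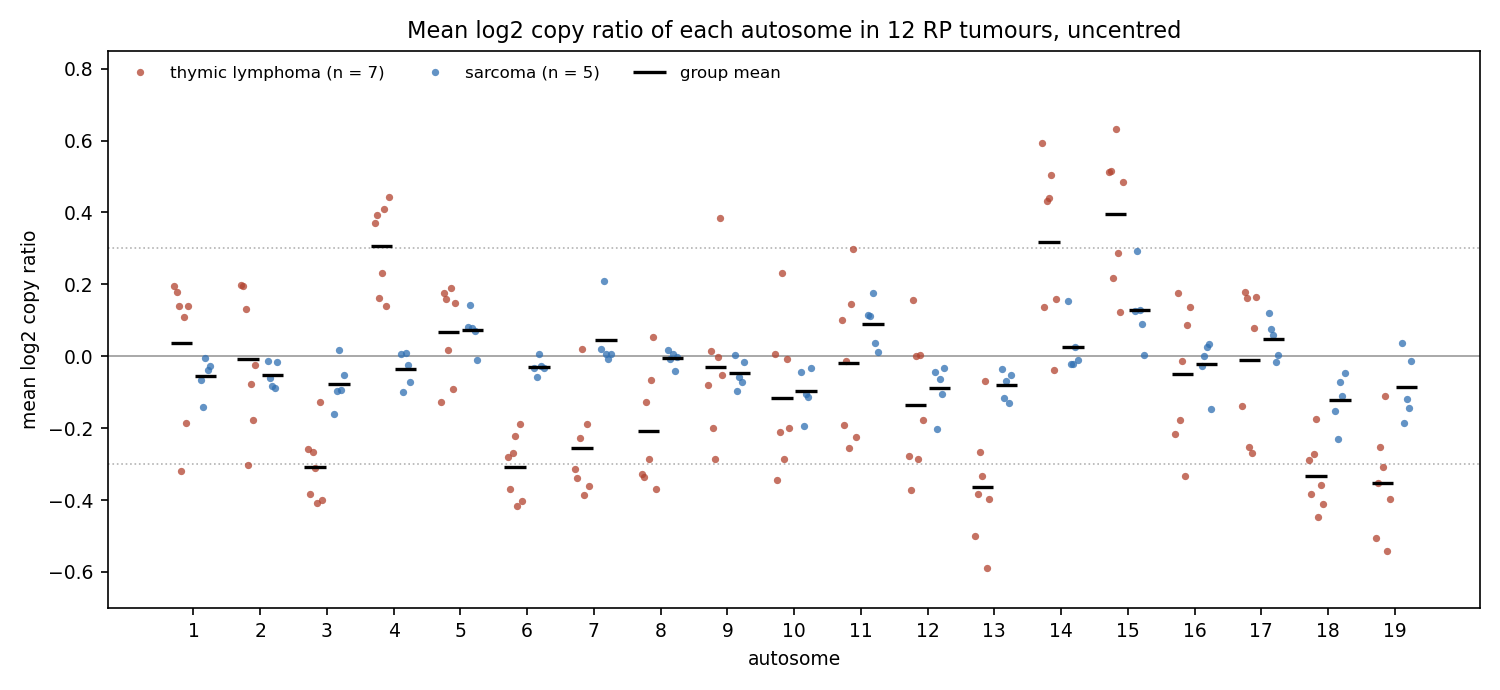
Length-weighted mean log2 copy ratio (y axis, uncentred) of each autosome (x axis) in 7 thymic lymphomas and 5 sarcomas, 1 point per tumour, with black bars at group means and dotted lines at 0.3 and -0.3. Chromosome 4 lies above 0 in all 7 thymic lymphomas (mean 0.31) and chromosomes 3, 6, 13, 18 and 19 lie below 0 in all 7.

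Chromosome 4 was above 0 in all 7 thymic lymphomas, from 0.14 (TL6) through a median of 0.37 to 0.44 (TL7). The sarcomas S1 to S5 stood at 0.005, -0.10, 0.008, -0.03 and -0.07. The means were 0.31 ± 0.13 and -0.04 ± 0.05 (difference 0.34 ± 0.05 SE; exact permutation, adjusted p = 0.024, n = 7 and 5). TL3 and TL6, the 2 lowest, still lay above every sarcoma. The chromosome was gained as a whole in 4 thymic lymphomas, and in 5 after centring, where the difference was 0.44 (exact permutation, adjusted p = 0.048).

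Chromosome 6 was below 0 in all 7 thymic lymphomas, from -0.42 (TL5) through a median of -0.28 to -0.19 (TL6). In S1 to S5 it stood at -0.03, -0.06, 0.005, -0.03 and -0.03, with an SD of 0.02. The difference was -0.28 ± 0.04 (SE; exact permutation, adjusted p = 0.024, n = 7 and 5), and after centring -0.18 (adjusted p = 0.072), which no longer passed. Here 3 thymic lymphomas had lost the whole chromosome.

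Chromosomes 13 and 19 had the lowest thymic lymphoma means. Chromosome 13 averaged -0.36 ± 0.17, from -0.59 (TL6) to -0.07 (TL5), and was lost as a whole in 5 of 7. Sarcoma values in S1 to S5 were -0.04, -0.11, -0.07, -0.13 and -0.05, and TL5 lay among these values. Chromosome 19 averaged -0.35 ± 0.15, from -0.54 (TL6) to -0.11 (TL5), and was also lost as a whole in 5 of 7. In S1 to S5 it stood at 0.04, -0.19, -0.12, -0.14 and -0.01, and TL5 again fell inside the sarcoma range. The differences were -0.28 and -0.27 (exact permutation, adjusted p = 0.0288 and 0.032, n = 7 and 5).

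Chromosome 18 averaged -0.33 ± 0.09 in thymic lymphomas and -0.12 ± 0.07 in sarcomas (difference -0.21; exact permutation, adjusted p = 0.024, n = 7 and 5). It was below 0 in all 12 tumours, with -0.15, -0.23, -0.07, -0.11 and -0.05 in S1 to S5. Ranked among the 19 autosomes of its own tumour, with rank 1 the lowest, it held a mean rank of 3.43 in thymic lymphomas and 3.2 in sarcomas, so the type difference is in size and not in order. Chromosome 3 averaged -0.31 ± 0.10 and -0.08 ± 0.07 (difference -0.23, adjusted p = 0.024 by the same exact test), and only TL6, at -0.13, lay inside the sarcoma range.

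Chromosome 7 averaged -0.26 ± 0.14 in thymic lymphomas and 0.05 ± 0.09 in sarcomas (difference -0.30; exact permutation, adjusted p = 0.0343, n = 7 and 5). TL4, at 0.02, was the one thymic lymphoma above 0. Sarcoma values were 0.02, 0.21, 0.005, -0.008 and 0.005, so S2 was the high sarcoma.

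The chromosomes that were highest in thymic lymphomas did not all pass. Chromosome 15, which carries the oncogene Myc, had the highest mean in thymic lymphomas, 0.40 ± 0.19, and in sarcomas, 0.13 ± 0.10. It ran from 0.12 (TL6) to 0.63 (TL4) and stood at 0.13, 0.29, 0.13, 0.09 and 0.004 in S1 to S5, above 0 in all 12 tumours. The difference of 0.27 missed the threshold (exact permutation, adjusted p = 0.0586, n = 7 and 5), and the mean rank within the tumour was 18 in both types. Chromosome 14 averaged 0.32 ± 0.23 and 0.03 ± 0.07 (difference 0.29, adjusted p = 0.072 by the same exact test). It ran from -0.04 (TL6) to 0.59 (TL1), was gained as a whole in 4 thymic lymphomas, and passed after centring (difference 0.39, adjusted p = 0.048).

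Chromosome 8 had a difference of -0.20 that did not pass (exact permutation, adjusted p = 0.0586, n = 7 and 5), with TL6 at 0.05 and the other thymic lymphomas from -0.37 to -0.07. The remaining 9 autosomes, 1, 2, 5, 9, 10, 11, 12, 16 and 17, had differences from -0.11 (chromosome 11) to 0.09 (chromosome 1) and adjusted p-values of 0.471 or above. Their thymic lymphoma values were not flat: chromosome 9 ran from -0.28 (TL4) to 0.38 (TL6), chromosome 10 from -0.34 (TL2) to 0.23 (TL4) and chromosome 1 from -0.32 (TL4) to 0.20 (TL1). In sarcomas these 9 autosomes ran from -0.20 to 0.18.

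Without centring 7 autosomes passed, 1 higher and 6 lower; with centring 2 passed (10.5%), chromosomes 4 and 14, both higher. Leaving out S3 or S5 left 0 passing, leaving out S1 left 3, and leaving out S4 or S2 left 5 and 7. With 1 sarcoma left out, the smallest p of the exact permutation test rises from 0.00253 to 0.00606, so these counts also follow the number of tumours. Without S3 chromosome 4 differed by 0.35 and no longer passed (exact permutation, adjusted p = 0.0576). The difference of chromosome 4 ran from 0.32 to 0.37 when each tumour was left out in turn. In these 12 runs the call was lost in 2 for each of chromosomes 3, 4 and 6 and in 3 for chromosomes 13 and 18. It was lost in 8 for chromosome 19 and in 10 for chromosome 7.

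**Figure D4:**
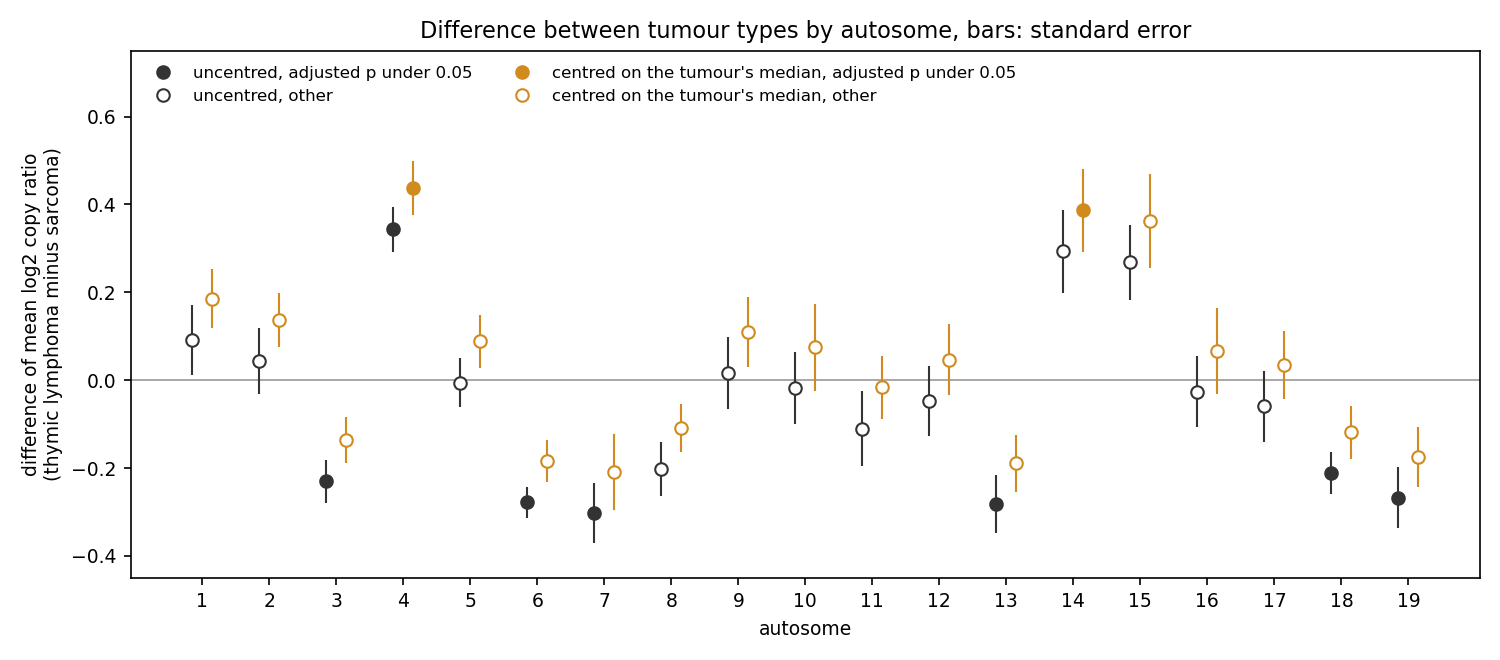
Difference of the mean log2 copy ratio, thymic lymphoma minus sarcoma (y axis), for each autosome (x axis), uncentred (dark) and centred on each tumour's median (orange); bars are standard errors, and filled points passed at an adjusted p under 0.05. Centring moves every difference up by 0.09: of the 7 filled dark points chromosome 4 stays filled, and chromosome 14 (0.39 centred) joins it.

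Individual thymic lymphomas differed in which chromosomes stood out. TL2 had 9 autosomes with a mean at -0.3 or below and 2 at 0.3 or above, TL7 had 7 and 2, and TL3 had 0 and 1. The highest autosome was chromosome 14 in TL1, TL3 and TL5, chromosome 15 in TL2, TL4 and TL7, and chromosome 9 in TL6. The lowest was chromosome 13 in TL2, TL4 and TL6, chromosome 18 in TL3, TL5 and TL7, and chromosome 19 in TL1. In sarcomas chromosome 11 was the highest in S3 and S5, chromosome 15 in S2 and S4 and chromosome 14 in S1.

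The comparison across 1 Mb bins located these differences within chromosomes. Of 2399 autosomal bins reached by a segment in every tumour, 975 passed (40.6%; exact permutation, adjusted p under 0.05), 283 higher and 692 lower in thymic lymphomas. All 157 bins of chromosome 3, all 59 of chromosome 19, 117 of 118 on chromosome 13 and 140 of 143 on chromosome 7 were lower. On chromosome 4, 148 of 154 were higher. Bins of 1 segment share its value, so the bins of a chromosome are not independent.

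Chromosomes that missed the threshold as a whole still held bins that passed. On chromosome 15, 69 of 99 bins were higher, on chromosome 14, 66 of 118 were higher and 2 lower, and on chromosome 8, 20 of 127 were lower. After centring 433 bins passed (18%), 309 higher and 124 lower (5.17%). All 283 higher bins of the uncentred comparison were among the 309, and 124 of its 692 lower bins (17.9%) were the lower ones after centring. Of these 124 lower bins, 123 lie on chromosome 6 and 1 on chromosome 14.

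Among bins that passed and were lower, the largest differences were those of chr14:53000001-54000000, in the T-cell receptor alpha and delta locus (difference -1.62), and chr6:41000001-42000000, in the beta locus with the trypsin genes Try4 and Prss1 (-1.48; exact permutation, adjusted p = 0.0183 for both, n = 7 and 5). Bin 53 of chromosome 14 ran from -2.98 to -0.14 in thymic lymphomas and stood at 0.16, -0.02, -0.003, 0.03 and -0.009 in S1 to S5. Of bins at least 5 Mb apart that passed, next came chr13:66000001-67000000 with zinc finger genes (-0.46), where S2 and S5 stood at 0.26 and 0.32. Then came chr7:9000001-10000000 with pheromone receptor genes of the Vmn2r family (-0.43), which rests in part on TL2 at -0.97, and chr7:3000001-4000000 with Cnot3, a subunit of the CCR4-NOT deadenylase (-0.39).

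Among bins that passed and were higher, chr14:79000001-80000000, with the cell cycle regulator gene Rgcc and with Vwa8, had the largest difference (0.39; exact permutation, adjusted p = 0.0337, n = 7 and 5). It ran from -0.01 (TL6) through a median of 0.46 to 0.70 (TL1), against 0.12, -0.03, -0.06, 0.03 and -0.007 in S1 to S5. TL7 had a focal gain there at 0.59, on an autosome with a median of 0.12. Leaving out each tumour in turn lost the call of this bin in 10 of 12 runs (exact permutation, adjusted p up to 0.0715). For the 4 bins named next it was lost in 0 of 12. The next 4, at least 5 Mb apart, lie on chromosome 4. They are the bin from 123000001 with Mycl, an oncogene of the Myc family (0.36), the bin from 115000001 with Tal1 (0.36), and those from 10000001 and 4000001 (0.36 for both; adjusted p = 0.0183 for all 4). With centring the lower side was led, after the beta locus, by chr14:54000001-55000000 (-0.32), which holds Dad1 and the end of the alpha and delta locus, at 54224198. Receptor losses ran into this bin, to 54200776 in TL1 and to 54213776 in TL5 and TL6, and the bin was not tested without the locus. Then came 3 bins of chromosome 6, one of them with Foxp2 and Mdfic (-0.25; exact permutation, adjusted p = 0.0253 for all 4, n = 7 and 5).

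Of 20665 autosomal protein-coding genes, 7861 passed (38%; exact permutation, adjusted p under 0.05), 1954 higher (9.46%) and 5907 lower (28.6%). These genes held 785 distinct sets of values over the 12 tumours, since a gene takes the value of its segment. The median difference over all genes was -0.04. After centring, 3231 genes passed (15.6%), 2200 higher and 1031 lower. Copy number says nothing of expression, which was not measured in these files. The gene lists below are read against 38%, the share over all genes.

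Of 52 T-cell lymphoma genes, 7 were higher and 14 lower in thymic lymphomas (21 genes, 40.4%), with a median difference of -0.05. The 7 are Tal1, Rpl22, Cdkn2a, Cdkn2b, Id3 and Jak1 on chromosome 4 and the interleukin 7 receptor gene Il7r on chromosome 15. Tal1, a transcription factor activated in human T-cell leukaemia (chr4:115056426-115071755), ran from 0.15 (TL6) through a median of 0.33 to 0.44 (TL7). In S1 to S5 it stood at 0.005, -0.09, 0.0006, -0.03 and -0.10, all below the lowest thymic lymphoma (difference 0.36 ± 0.05 SE; exact permutation, adjusted p = 0.0167, n = 7 and 5). Rpl22, a ribosomal protein gene needed by developing T cells, differed by 0.35 (exact permutation, adjusted p = 0.0167).

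Tumour suppressor genes stood on both sides. Cdkn2a and Cdkn2b, cell cycle inhibitor genes often deleted in human T-cell leukaemia, were higher by 0.35 each (exact permutation, adjusted p = 0.0167, n = 7 and 5) and were lost in 0 of the 12 tumours. Fbxw7, a ubiquitin ligase subunit for Notch and Myc, was lower (-0.24, adjusted p = 0.025 by the same exact test) and was lost in 4 thymic lymphomas. Notch1, which drives T-cell fate, stood at -0.01 ± 0.19 in thymic lymphomas and -0.06 ± 0.04 in sarcomas and did not pass (adjusted p = 0.801). Not 1 listed gene lay in a segment of at most 5 Mb and at least 10 markers at -1 or below.

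Ikzf1, a zinc finger transcription factor of lymphocytes, was named after its values were seen. It had a focal loss in TL3 at -0.59, while the other thymic lymphomas ran from -0.27 to 0.29 and the sarcomas from 0.01 to 0.16.

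Of 24 T-cell identity genes 1 was higher and 7 lower (33.3%). The kinase gene Lck on chromosome 4 was higher by 0.34. The co-receptor genes Cd4, Cd8a and Cd8b1, all on chromosome 6, were lower (-0.27 each; exact permutation, adjusted p = 0.0167 for all 4, n = 7 and 5), and they passed with centring too. Cd8a ran from -0.39 to -0.18 in thymic lymphomas and from -0.05 to 0.01 in sarcomas. The terminal transferase gene Dntt, Cd5, Cd2 and Lat were also lower, on chromosomes 19, 3 and 7.

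Of 30 p53 pathway genes 5 were higher and 8 lower (43.3%). Trp53 itself (chr11:69580348-69591873) ran from -0.23 (TL4) to 0.36 (TL5) in thymic lymphomas and stood at 0.10, 0.10, 0.16, 0.04 and 0.01 in S1 to S5. Its means of 0.04 ± 0.22 and 0.08 ± 0.06 did not pass (exact permutation, adjusted p = 0.869, n = 7 and 5). By its mean the gene was gained in 1 thymic lymphoma, TL5, and lost in 0 tumours. In TL5 this rests on a segment of 5 markers at 0.68, and the only other segment that reaches the gene was at 0.16. The same 5 markers stood at 0.63 in TL7 and -0.33 in TL1. Whether the engineered allele shows in these ratios was not tested. The p53 relative Trp73 and the stress response gene Sesn2, on chromosome 4, were higher (0.35 and 0.34, adjusted p = 0.0167). Bbc3, which encodes the apoptosis inducer Puma, was lower on chromosome 7 (-0.31, adjusted p = 0.0167), together with Bax. The cell cycle inhibitor gene Cdkn1a and the p53 inhibitor gene Mdm2 did not pass (-0.04 and -0.06, adjusted p = 0.846 and 0.796).

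Of 30 cell cycle genes 5 were higher and 10 lower (50%). Cdkn2c and E2f2 on chromosome 4 were higher (0.36 and 0.34; exact permutation, adjusted p = 0.0167, n = 7 and 5). Rb1, the retinoblastoma gene on chromosome 14, was higher as well (0.36, adjusted p = 0.0358), from -0.01 (TL6) to 0.70 (TL1). The cyclin genes Ccnd1, Ccnd2, Ccne1, Ccna2 and Ccnb1 were lower. Of 45 sarcoma genes 4 were higher and 15 lower (42.2%): Jun and Pax7 on chromosome 4 were higher (0.35 each) and the receptor kinase gene Met on chromosome 6 was lower (-0.31). In sarcomas the 45 genes were altered in 2.22% ± 2.22 of cases and in thymic lymphomas in 38.4% ± 20.6, against 1.24% and 33.4% over all protein-coding genes.

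Of 40 growth signalling genes 2 were higher and 15 lower (42.5%), with the lowest median difference of the 9 lists (-0.12). The kinase gene Mtor on chromosome 4 was higher (0.35) and Akt2 on chromosome 7 and Braf on chromosome 6 lower (-0.31 and -0.30; exact permutation, adjusted p = 0.0167 for all 3, n = 7 and 5). In sarcomas 0% of this list was altered. Of 48 genes of lipid and energy metabolism 5 were higher and 13 lower (37.5%). The fatty acid import gene Cpt2, the glucose transporter gene Slc2a1, the lipid droplet gene Plin2 and the proline catabolism gene Aldh4a1 lie on chromosome 4 and were each higher by 0.35 to 0.36. The lactate dehydrogenase gene Ldha on chromosome 7 and Pparg on chromosome 6 were lower (-0.31 and -0.26).

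Of 22 chromatin regulators 2 were higher and 4 lower (27.3%): Arid1a and Hdac1 on chromosome 4 were higher (0.34 each), and Ezh2 and Chd4 on chromosome 6 lower (-0.26 and -0.27; exact permutation, adjusted p = 0.0167 for all 4, n = 7 and 5). Of 29 genome maintenance genes 1 was higher and 6 lower (24.1%). Nbn, which encodes a subunit of the MRN complex at DNA breaks, was higher on chromosome 4 (0.36). Pot1a at telomeres, Fancd2 of the Fanconi pathway and Xrcc4 of end joining were lower (-0.31, -0.26 and -0.28; adjusted p = 0.0167, 0.0167 and 0.0293). In each of the 9 lists the members that passed lay on the autosomes named above.

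Centring kept the higher genes of these lists and removed most of the lower ones. Higher and lower members after centring numbered 7 and 3 in the T-cell lymphoma list, 4 and 1 in the sarcoma list, 5 and 2 in the p53 pathway and 5 and 3 in the cell cycle. They numbered 2 and 4 in growth signalling, 5 and 4 in lipid and energy metabolism, 3 and 2 in chromatin regulators, 1 and 2 in genome maintenance and 1 and 3 in T-cell identity, against 15.6% over all genes. The lower genes that still passed lie on chromosome 6, among them Met, Braf, Ezh2, Cd4 and Pparg. Fbxw7, Bbc3, Akt2, Xrcc4 and Ldha, on other chromosomes, did not pass after centring (differences -0.15, -0.22, -0.22, -0.18 and -0.22). The median difference turned from below to above 0 in 8 of the 9 lists, as it did over all genes (from -0.04 to 0.05).

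Focal gains did not separate the tumour types. A focal change is a segment of at most 5 Mb and at least 10 markers that lies 0.3 or more from the median of its autosome, with neighbours joined and receptor loci left out. TL1 to TL7 had 3, 5, 5, 5, 5, 6 and 6 focal gains and S1 to S5 had 5, 14, 8, 3 and 4. The means of 5.0 ± 1.0 and 6.8 ± 4.44 did not differ beyond their spread (difference -1.8 ± 2.02 SE; exact permutation p = 0.465, n = 7 and 5), and without S2 the difference was 0. Focal losses numbered 15, 9, 6, 4, 5, 6 and 10 against 4, 3, 1, 5 and 5, with means of 7.86 ± 3.8 and 3.6 ± 1.67 (exact permutation p = 0.0278). This call was lost without S2 or S3, with differences of 4.11 and 3.61, and its direction turned at a cutoff of 0.5 (-0.14). The counts of focal losses include those in regions shared between tumours, as given below.

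Few focal gains were high. Thymic lymphomas had 35 focal gains, 7 of them at 1 or above, and sarcomas 34, also 7. Losses at -1 or below numbered 4 of 55 and 3 of 18. Inside the receptor loci there were 26 further events in thymic lymphomas and 1 in sarcomas.

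Myc, the oncogene on chromosome 15 (chr15:61985341-61990361), lay in a focal gain in 1 tumour of each type. In thymic lymphomas its value was 1.35 in TL4 and 0.12 to 0.52 in the other 6. Among sarcomas, S1 to S5, it stood at 0.13, 2.22, 0.11, 0.08 and 0.004. The segment of TL4 ran over 3762 kb with 13 markers, and that of S2 over 1166 kb with 11 markers, covering 79.8% of the gene. These are 2.56 and 4.67 times the comparison signal. The groups overlapped and their means, 0.49 ± 0.41 and 0.51 ± 0.96, did not pass (exact permutation, adjusted p = 0.971, n = 7 and 5).

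TL6 carried the highest gain of listed genes among thymic lymphomas. A segment of 489 kb and 142 markers on chromosome 2 (chr2:31760036-32248614) stood at 1.81, or 3.51 times the comparison signal. It covered all of Nup214, a nuclear pore gene, and 39.6% of Abl1, a tyrosine kinase gene, which fuse with each other in some human T-cell leukaemias. In the other thymic lymphomas Nup214 ran from -0.30 to 0.21, and in sarcomas from -0.11 to -0.02. The neighbouring segment (chr2:32251909-32353048), at 1.68, held Golga2, Dnm1 and the miRNA gene Mir199b.

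Sarcomas had their own focal gains. In S2 a segment of 10.3 kb and 11 markers inside the cyclin gene Ccne2 on chromosome 4 stood at 2.11, covering 71.7% of the gene. The gene was at -0.10 to 0.005 in the other sarcomas and at 0.13 to 0.44 in thymic lymphomas. Crkl, an adaptor gene of tyrosine kinase signalling (chr16:17451985-17487440), stood at 1.42 in S3 and 3.01 in S5, or 2.68 and 8.04 times the comparison signal. In S1, S2 and S4 it stood at -0.03, 0.0004 and 0.20, and in thymic lymphomas it ran from -0.36 to 0.17. The mean difference of -0.97 did not pass (exact permutation, adjusted p = 0.143, n = 7 and 5), since 2 of 5 sarcomas carry it.

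S3 and S5 shared more of chromosome 16 than Crkl. The joined gain reached from 17255040 to 19486839 in S5, with 512 markers and 50 protein-coding genes, and its core in both was chr16:17452477-18454475. A second gain ran from 27324522 to 32186375 in S5 and shared chr16:29209975-32186375 with S3. It reached 1.17 in one tumour and 1.47 in the other and held 34 genes, among them Hes1, a target of Notch. The lambda light chain locus (chr16:19061752-19260844) lies inside the first gain of S5 and stood at 2.34 there. The median of chromosome 16 in S5 was -0.36.

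The miRNA genes inside these high gains are shown because each takes the copy number of its segment; the mature sequences are from RefSeq for GRCm38.p6, with the seed, bases 2 to 8, in capitals. The first was at 1.68 in TL6, and the next 4 at 1.49 in S5, within chr16:18060709-18587986:
mmu-miR-199b-3p: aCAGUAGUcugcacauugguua
mmu-miR-185-3p: aGGGGCUGgcuuuccucuggu
mmu-miR-1306-3p: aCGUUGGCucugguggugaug
mmu-miR-1306-5p: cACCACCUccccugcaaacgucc
mmu-miR-3618-3p: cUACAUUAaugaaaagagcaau
No 2 of these 5 share a seed. The genes of the 4 shown for S5 also lie inside the joined gain of S3 (chr16:17452477-18454475), whose highest segment stood at 1.42. In all, the gains at 1 or above held 10 mature miRNAs of the RefSeq table.

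Counted over regions, 25 were focal in the same direction in 2 or more tumours: 12 in thymic lymphomas, 7 in sarcomas and 6 in both. Of the 25, 14 were also called in an AD tumour, and 2, both on chromosome 16, held a listed gene. Of the focal losses, 26 of 55 in thymic lymphomas and 15 of 18 in sarcomas lay in such shared regions. Whether the shared regions arose in the tumours or were already present in the animals was not tested. In sarcomas S1, S4 and S5 shared 3 losses: Rab3ip, a gene of vesicle transport, on chromosome 10 (-0.88 to -0.83), and on chromosome 19 Fgfbp3 with Btaf1 (-0.80 to -0.56) and Ide with Kif11, a spindle motor gene (-0.76 to -0.53). The 2 on chromosome 19 have the same ends in all 3 tumours. S1, S2 and S3 shared a gain on chromosome 1 with B020011L13Rik (0.21 to 0.35).

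In thymic lymphomas the shared regions included several gene families. Relative to their autosome, losses covered the Mup major urinary protein genes (TL1, TL2 and TL4, at -0.37 to -0.03) and the Skint genes (TL1 and TL4, at -0.48 to -0.22). Others covered Pramel genes (TL3 and TL7, at -0.33 to -0.28) and Zfp951 (TL2 and TL7, at -0.51 to -0.34). Not all of these values reach the -0.3 at which a segment was called lost. TL2, TL3 and TL5 shared a gain on chromosome 18 with Matr3 and Paip2, at 0.01 to 0.09, which stands above the level of its autosome there and not above 0. TL1 and TL7 shared a loss with Cr2 and Cd34 on chromosome 1, at -0.22 to -0.11, which lies below the level of its autosome and does not reach -0.3.

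Regions in both types included a segment without a gene at the start of chromosome 9, gained in 6 thymic lymphomas and 4 sarcomas. Sfxn1, a mitochondrial serine transporter gene (chr13:54085459-54106506 for the segment), was gained with the same ends in TL5, TL6, TL7 and S2, at 0.996, 1.9997, 0.66 and 0.66. Rfc1, a subunit of the DNA clamp loader, was lost in TL3, TL5, TL6, S2, S4 and S5 and gained in TL1 and TL2. The pheromone receptor genes of the Vmn1r family on chromosome 7 went both ways too, lost in TL1, TL6, S1, S2 and S4 and gained in TL2, TL3 and TL5. Of the 25 regions, 8 had a tumour that went the other way. Gains and losses are counted as separate regions, so Rfc1, Vmn1r and a zinc finger region of chromosome 4 enter in both directions. The Mup region counts through a gain of S2 that ends at 60068900, where the loss of TL2 begins.

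**Figure D5:**
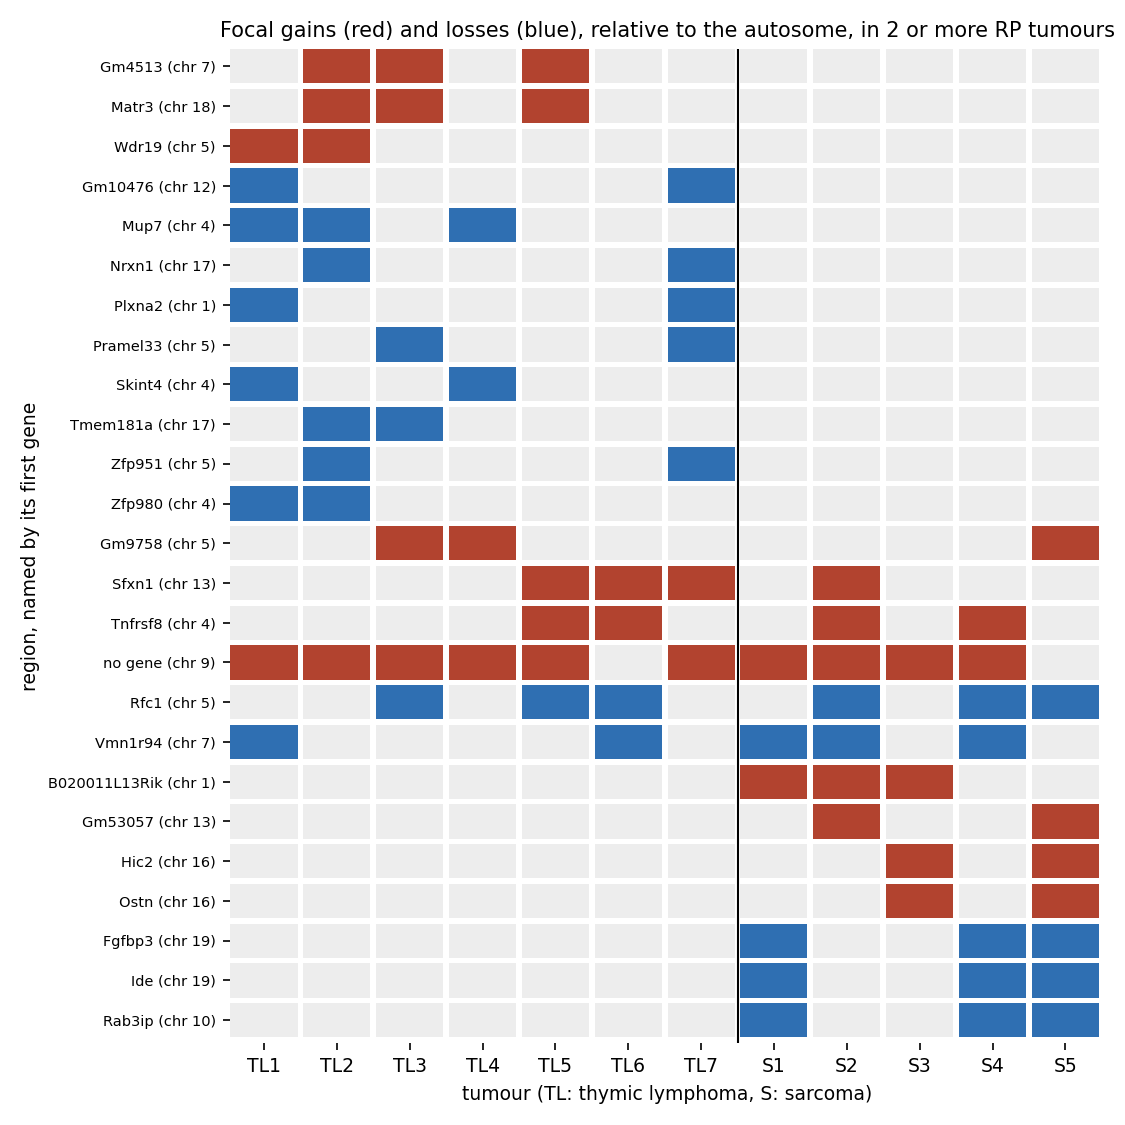
Regions (y axis, named by their first gene) with a focal gain (red) or loss (blue), relative to the autosome of the same tumour, in 2 or more of the 12 RP tumours (x axis). The upper 12 regions are filled in thymic lymphomas alone and the lowest 7 in sarcomas alone; the segment without a gene on chromosome 9 is filled in 10 tumours.

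Changes over 5 Mb that did not take a whole chromosome were found in TL3, TL4, TL6, TL7, S3 and S5. TL7 had 29.7 Mb of chromosome 9 at 0.45, with Yap1, Birc2 and Birc3, an oncogene and apoptosis inhibitor genes that neighbour each other, and Ets1. TL6 had 27.1 Mb of chromosome 10 at 0.35 with Myb, a transcription factor gene of early T cells. TL4 had 15.5 Mb of chromosome 15 at 0.98, the chromosome of its Myc segment, with Rrm2b. TL3 had 5.05 Mb of chromosome 16 at -0.80.

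The same comparison in AD mice shows which differences could be told apart by genotype. All 7 autosomes that passed had the same sign of difference in AD tumours, as had 13 of all 19. Chromosome 4 differed by 0.34 in RP and 0.21 in AD tumours, chromosome 7 by -0.30 and -0.40, and chromosome 13 by -0.28 and -0.34. Chromosomes 14 and 15 pointed apart, by 0.29 and -0.16 and by 0.27 and -0.04. The difference between the genotypes was tested by permuting genotype within tumour type: 0 of 19 autosomes passed (smallest adjusted p = 0.262 by exact permutation over 864864 splits). There were 2 with an unadjusted p under 0.05, chromosome 14 (0.46, exact permutation p = 0.0198) and chromosome 15 (0.31, p = 0.0275), and limma also gave 0, with 2 unadjusted. No difference was therefore shown to be particular to the monomeric genotype.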

How the data were processed

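Members and gene lists were chosen with earlier results of these data known. Each tumour has 1 deposited table of segments. Per the file headers, the segment mean in the deposited tables is a log2 copy ratio, and the marker number is another count per segment, not of reads. GATK 4.1.0.0, BWA 0.7.17 and Trim Galore 0.6.5 are listed with GRCm38, per the submitters' processing notes; order, settings, segmentation and comparison DNA are not stated there. Replicates were numbered in accession order, and 0 pairs of tables were identical. The labels give each of the 12 tumours a different animal number and say no more of the replicates, so p-values measure the spread between tumours of separate animals.

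Segments were averaged by length per autosome, per 1 Mb bin reached in all 12 tumours and per RefSeq gene (GRCm38.p6; 270 of 270 listed symbols matched, 267 on autosomes), taking the nearest segment for 167 genes without one in some tumour. Two-sided exact permutation tests of the means used all 792 splits, with Benjamini-Hochberg adjustment, and were tested on simulated data first. limma 3.58.1 (R 4.3.3), other cutoffs, weights, bins and each tumour left out were alternatives. Python 3.11.15, numpy 2.4.6, pandas 2.3.3, scipy 1.17.1 and matplotlib 3.10.9 were used. Named were all autosomes, the 5 bins that passed with the largest difference per direction at least 5 Mb apart, 4 genes per list with the smallest p, listed genes in focal segments at 1 or above or -1 or below, Trp53, and regions focal in 2 or more tumours; further list members are given as examples chosen after their values were seen. Chromosomes X and Y were left out because the sex of the comparison DNA is not given. Depth is unknown, so its part in the precision of the values was not tested. One item of the gene lists is not reported here.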

Additional observations from a re-analysis of the deposited data

Results flagged for a closer look

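Of 63 groups of values tested for a single tumour far from its group, 8 had one. The genes tested were mostly those named for a high focal segment in these same tumours. A chance rate of about 1 in 20 therefore does not apply to them, and the 8 are listed as a description. In thymic lymphomas these were TL1, with 3 focal gains against 5 to 6 in the others, TL4 at Myc (1.35 against 0.12 to 0.52), and TL6 at Abl1 (1.54 against -0.30 to 0.21) and Nup214 (1.81 against -0.30 to 0.21), which share 1 segment. In sarcomas they were S2 at Myc (2.22 against 0.004 to 0.13), at Ccne2 (2.04 against -0.10 to 0.005) and for the mean of chromosome 7 (0.21 against -0.008 to 0.02), and S1 for the mean of chromosome 14 (0.15 against -0.02 to 0.03). So 3 of the 4 sarcoma values belong to S2.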

How the results depend on the processing

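Autosomes passing numbered 2 when centred, 1 for ranks within the tumour, 4 without TL4 and S3 together (the animals whose ear was also sequenced), and 0 to 10 when each tumour was left out: 3 without S1 and 0 without S3 or S5. Fewer tumours raise the smallest p that the exact test can give, so counts with tumours left out are not on the same footing as the full counts. Bins passing numbered 433 centred, 404 centred with limma, 206 of 502 bins of 5 Mb, 509 without TL4 and S3, and 331 to 1133 leaving out each tumour (417 without S1, 331 without S3, 627 without S4, 348 without S5). Genes passing numbered 3231 centred, 4794 without TL4 and S3, and 3117 to 9451 leaving out each tumour (4169 without TL7, 3486 without S1, 3117 without S3, 5182 without S4, 3466 without S5). The difference of the median log2 was -0.076 weighted by markers (exact permutation p = 0.0657), and that of whole-autosome changes was 0.857 at a cutoff of 0.5 (exact permutation p = 0.141). Focal gains per tumour differed by 1.23 against the tumour median, and from -2.75 to 0 leaving out each tumour (0 without S2). Focal losses differed by -0.14 at a cutoff of 0.5, by 3.26 against the tumour median, by 1.94 at most 1 Mb, and by 3.07 to 4.9 leaving out each tumour. Chromosome 18 turned from -0.21 to 0.23 in ranks within the tumour. Of 53 autosomes, bins and genes named that passed, this was the 1 that reversed, and 13 no longer passed on centring. Altered share and spread of autosome means kept their direction and call under every alternative run. No paired analysis was possible because the labels give each of the 12 tumours a different animal number. Depth is unknown, and what normal cells add to each tumour limits how small a change could be seen.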

Other observations

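Chromosome X, used in no comparison, had mean log2 values of -0.25, 0.81, 0.47, 1.89, 1.16, 1.14 and 1.37 in TL1 to TL7 and of 0.11, 0.65, 0.008, 0.91 and -0.05 in S1 to S5. The sex of the animals and of the comparison DNA is not given.

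A segment of 5 markers inside Trp53 (chr11:69586890-69588625) stood at -0.33 in TL1, 0.68 in TL5 and 0.63 in TL7 with the same ends in each, and was not set apart in the other 9 tumours.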
